A study of Caenorhabditis elegans with 6 samples.

Results

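Alpha and beta tubulin pair into the dimers from which microtubules are built, and each is encoded by several genes, the isotypes, which differ in where they are used. In Caenorhabditis elegans some isotypes serve dividing and growing cells in general, others are used in the cilia of sensory neurons, and the pair made by mec-12 and mec-7 builds the large-diameter microtubules of the touch receptor neurons. The 10 genes described here were chosen by name, as 6 alpha isotypes (tba-1, tba-2, tba-5, tba-6, tba-9 and mec-12) and 4 beta isotypes (tbb-1, tbb-2, tbb-4 and mec-7), out of 47063 genes in the tables. All 10 were found by gene identifier, and all 10 passed the filter on low counts. They were measured by RNA-seq in 3 libraries of dopamine neurons and 3 of serotonin neurons.

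All 6 libraries came from strain FQ939 with the genotype given as WT, from embryos and larvae, with no treatment named. The same strain name stands on both cell types, and the sources used here do not say how the neurons were marked and collected. Dopamine neurons of this worm are ciliated mechanosensory cells, and the main serotonin neurons are the pharyngeal NSM cells and the ciliated ADF cells. The labels do not say that the replicates came from separate cultures, so p-values reflect only how far these libraries differ from each other, possibly for technical reasons.

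The reads recovered per library ranged from 20418663 to 31559049. Libraries dopamine 1 and serotonin 3 stood apart, with 40.9% and 41.5% of reads in nuclear ribosomal RNA genes against 7.53% to 13.7% in the other 4, and results are also given without both. Dopamine identity genes such as dat-1 and cat-2 summed to 22955 to 44034 normalized counts (read counts divided by a size factor per library) in the dopamine libraries and 1586 to 2362 in the serotonin libraries. Serotonin identity genes such as tph-1 and mod-5 summed to 673 to 1007 and to 6546 to 8746. Of these 5 genes, tph-1, mod-5 and ttx-3 were called higher in serotonin libraries by the test given below. The others, unc-86 and lim-4, were not, with means of 481 and 122 in dopamine and 544 and 153 in serotonin libraries. Pharyngeal muscle genes were also high in the serotonin libraries, where myo-2 stood at 11891 to 28020 normalized counts against 109 to 219 in the dopamine libraries. In these bulk libraries, fewer cells of a type and less RNA per cell cannot be told apart.

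Levels below are FPKM, deposited by the authors as fragments per kilobase of gene length and per unit of library size, which allows genes of different length to be compared. Differences between groups are dopamine minus serotonin values of log2(normalized count + 1), tested by limma over 15750 genes with Benjamini-Hochberg adjustment and a threshold of 0.05. Of all genes tested, 3.16% were called higher in dopamine and 6.36% higher in serotonin libraries. At these rates a short list can hold 0 calls, so 0 called in a list below does not show that the groups are alike. Among the 10 tubulin genes, 4 were higher in dopamine libraries (tba-9, tbb-4, mec-7 and mec-12), 1 was higher in serotonin libraries (tba-5), and 5 did not pass (tba-1, tba-2, tba-6, tbb-1 and tbb-2). The median log2 difference was 0.79 for the 10 genes and -0.07 for all genes tested, and -0.17 and -1.0 when scaled to 15 pan-neuronal genes. All 3 dopamine libraries were above all 3 serotonin libraries for 7 of the 10 genes, as for 12.3% of all genes tested, and the reverse held for 1 of the 10 and 15.1% of all genes. Of the 7, tba-1, tba-2 and tbb-1 separated narrowly and did not pass. The tba-2 values came closest to 112.2 FPKM in dopamine 1 against 110.9 in serotonin 3.

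**Figure D1:**
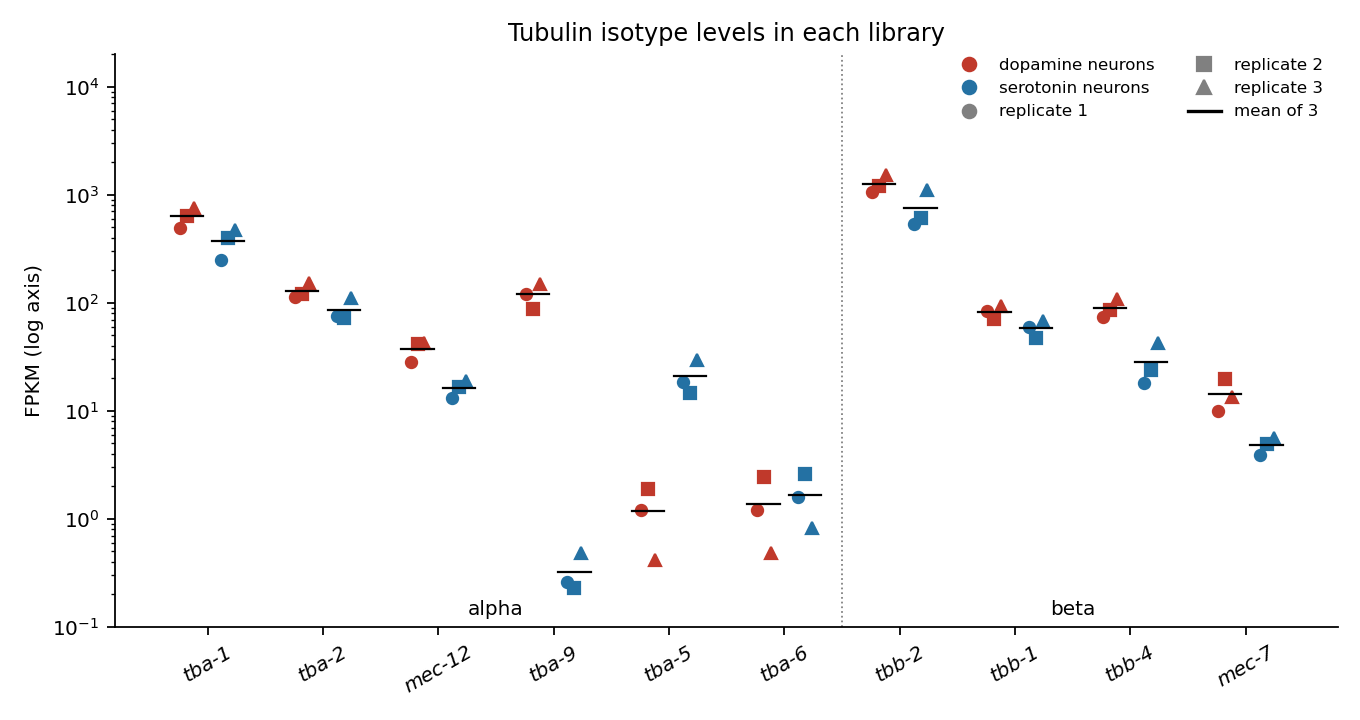
FPKM on a log axis of the 6 alpha and 4 beta isotypes in each library, dopamine in red and serotonin in blue, with symbols for the replicate numbers and a black bar at the mean of 3. The tba-9 points of the dopamine libraries lie between 88.6 and 150.0 FPKM and those of the serotonin libraries between 0.23 and 0.48, while tba-5 shows the opposite order.

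The isotypes used in cilia showed the largest contrast, and its direction differed by gene. The alpha isotype gene tba-9 (WBGene00006535, chromosome X, 3252800 to 3256269 on the plus strand of WBcel235, with 9 exons) encodes a tubulin known from ciliated sensory neurons, studied mostly in males. It stood at 120.3, 88.6 and 150.0 FPKM in dopamine libraries 1, 2 and 3 and at 0.26, 0.23 and 0.48 FPKM in serotonin libraries 1, 2 and 3. The groups were far apart, and the serotonin values rested on only 20, 14 and 12 reads against 3540 to 7625 reads in the dopamine libraries. The gene was 346-fold higher in dopamine libraries (3669 ± 942 against 9.86 ± 4.24 normalized counts, SD, n = 3 each; log2 difference 8.43, SE 0.40, limma adjusted p = 2.58e-07). The fold was between 89.4 and 590.5 across all alternatives, the lowest with a pseudocount of 1 on the FPKM scale. Only 1 of the 15750 tested genes had a larger absolute log2 difference, the neuropeptide gene flp-33.

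The alpha isotype gene tba-5 (WBGene00006531, chromosome I, 8353382 to 8358273, plus strand, 6 exons) encodes a tubulin placed in the distal part of sensory cilia. It stood at 18.7, 14.6 and 29.5 FPKM in serotonin libraries 1, 2 and 3 and at 1.21, 1.89 and 0.42 FPKM in dopamine libraries 1, 2 and 3. All 3 serotonin libraries were above all 3 dopamine libraries. The gene was 19.5-fold higher in serotonin libraries (628.7 ± 232 against 35.3 ± 22 normalized counts; log2 difference -4.29, SE 0.54, limma adjusted p = 4.04e-04). Its exons overlap 26 bases of rsd-6 on the opposite strand, so some of its reads may belong to that gene, and how many was not tested. Within the dopamine libraries tba-5 varied more than any other isotype but tba-6, with a CV of 62.7%, and rested on only 21 reads in dopamine 3. Without dopamine 3 the difference was 12.97-fold (log2 difference -3.70, limma adjusted p = 8.37e-04).

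Another alpha isotype of ciliated cells, tba-6 (WBGene00006532, chromosome I, 8994002 to 8998604, plus strand, 9 exons), known from the IL2 neurons and male-specific ciliated neurons, was low in both cell types. It stood at 1.2, 2.46 and 0.48 FPKM in the dopamine libraries and at 1.59, 2.62 and 0.82 FPKM in the serotonin libraries. The groups overlapped, and the gene did not pass (log2 difference -0.41, SE 0.71, limma adjusted p = 0.781). Its difference was 0.19 without dopamine 3, so no direction can be given. Its exons share 75 bases with F32H2.6 on the opposite strand.

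On the beta side, tbb-4 (WBGene00006538, chromosome X, 9434452 to 9436893, minus strand, 7 exons), the beta isotype of sensory cilia, stood at 74.1, 86.6 and 109 FPKM in dopamine libraries 1, 2 and 3. In serotonin libraries 1, 2 and 3 it stood at 18.3, 23.9 and 42.7 FPKM. The groups did not overlap, and tbb-4 was 3.35-fold higher in dopamine libraries (3146 ± 621 against 989 ± 449 normalized counts; log2 difference 1.74, SE 0.32, limma adjusted p = 0.00517). Scaled to 15 pan-neuronal genes, the log2 difference was 0.78 and the call was lost (limma adjusted p = 0.0796, with 2.83e-05 to 0.0796 across all alternatives).

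Within each library, the summed FPKM of tba-5, tba-6 and tba-9 was compared with that of tbb-4. The ratio was 1.66, 1.07 and 1.38 in dopamine libraries 1, 2 and 3 and 1.13, 0.730 and 0.720 in serotonin libraries 1, 2 and 3. By FPKM, the sum of the 3 alpha genes was within 1.66 times the tbb-4 level in either direction in every library. Its largest contributor was tba-9 in all 3 dopamine and tba-5 in all 3 serotonin libraries. In the dopamine libraries tba-9 FPKM was 46.9 to 357 times that of tba-5, and in the serotonin libraries tba-5 FPKM was 61.4 to 71.9 times that of tba-9. These ratios lie within a library and do not depend on the scaling between libraries. They do depend on the gene lengths behind FPKM. Estimated from FPKM and normalized counts, these were below the annotated exons for tba-5 (1342 against 1817 bases) and tba-9 (1369 against 1627). For tbb-4 the lengths nearly matched (1562 against 1564). Per annotated exon base the alpha sum is thus lower against tbb-4, and the bound of 1.66 holds for FPKM only.

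Over all genes tested, 6.36% were called higher in serotonin and 3.16% in dopamine libraries. Of 15 ciliated neuron genes for intraflagellar transport and related functions, 4 (che-3, dyf-1, daf-10 and osm-1) were higher in serotonin and 0 in dopamine libraries. The other 11 did not pass, and 3 of all 15 had a positive log2 difference. The summed level of the 15 was 10603 to 15791 normalized counts in the dopamine and 23108 to 37241 in the serotonin libraries. The gene che-3 alone held 9167 to 13437 of these counts in the serotonin and 1390 to 2160 in the dopamine libraries. Genes of IL2 and male ciliated neurons (pkd-2, lov-1, cil-7 and klp-6) summed to 167 to 282 and to 368 to 518, with 0 of 4 called by limma, and none of these 4 genes was at 0 in every library. The summed level of 9 muscle genes was 29337 to 49945 in the dopamine and 47535 to 81336 in the serotonin libraries, with 5 of 9 higher in serotonin and 1 in dopamine libraries. The 5 were unc-15, myo-1, myo-2, tnc-2 and tni-4, and the 1 was unc-54, while myo-3, unc-27 and tnt-2 did not pass. Most of the sum in the dopamine libraries was unc-54 alone, at 25419, 25489 and 46551 normalized counts. In the serotonin libraries unc-54 stood at 15874, 10013 and 16484. The part of these cell types in the tba-5 and tbb-4 differences was not tested.

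The isotypes of touch receptor neurons were both higher in dopamine libraries. The beta isotype gene mec-7 (WBGene00003171, chromosome X, 7774856 to 7776689, minus strand, 5 exons) stood at 9.99, 19.6 and 13.5 FPKM in dopamine libraries 1, 2 and 3 and at 3.93, 4.91 and 5.60 FPKM in serotonin libraries 1, 2 and 3. It was 2.89-fold higher (499.7 ± 169 against 168 ± 29.3 normalized counts; log2 difference 1.53, SE 0.35, limma adjusted p = 0.0173), with no overlap between groups. The alpha isotype gene mec-12 (WBGene00003175, chromosome III, 3131574 to 3139234, minus strand, 5 exons) encodes the alpha tubulin that is acetylated in touch neurons and is also used in other neurons. It stood at 28.1, 42.0 and 42.8 FPKM in the dopamine libraries and at 13.1, 16.8 and 18.7 FPKM in the serotonin libraries, again with no overlap. It was 2.31-fold higher (1346 ± 294 against 579 ± 103 normalized counts; log2 difference 1.21, SE 0.28, limma adjusted p = 0.0197). Its exons share 76 bases with Y53G8B.1 on the opposite strand.

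Both calls were near the threshold. Without dopamine 2, dopamine 3 or serotonin 1, the limma adjusted p of mec-7 was 0.0614, 0.0576 and 0.0625 (5.66e-04 to 0.294 across all alternatives), and that of mec-12 was 0.0627, 0.0873 and 0.0788 (0.00108 to 0.551 across them). Scaled to pan-neuronal genes, the log2 difference was 0.57 for mec-7 and 0.25 for mec-12, and neither passed. Touch receptor markers (mec-4, mec-10, mec-17, mec-18, mec-3 and mec-1) summed to 909 to 1737 normalized counts in the dopamine and 696 to 895 in the serotonin libraries, and 0 of 6 were called. All 6 markers were detected in every library. Dopamine 2 held the highest sum as it held the highest mec-7 value, while mec-12 was highest in dopamine 3. Among the serotonin libraries, serotonin 3 held the lowest sum but the highest mec-7 and mec-12 values. The part of touch neurons in these differences was not tested. Pan-neuronal genes such as rab-3 and unc-64 summed to 103319 to 163974 in the dopamine and 55120 to 89742 in the serotonin libraries, with 8 of 15 higher in dopamine and 0 in serotonin libraries, and the differences of mec-7, mec-12 and tbb-4 scaled to these genes are those given above.

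The broadly used isotypes made up most of the tubulin RNA in both cell types. The beta isotype gene tbb-2 (WBGene00006537, chromosome III, 4015910 to 4017627, minus strand, 4 exons), a major tubulin of embryonic cells, stood at 1059, 1200.4 and 1508 FPKM in dopamine libraries 1, 2 and 3 and at 535, 611 and 1107 FPKM in serotonin libraries 1, 2 and 3. By mean FPKM it ranked 15 among protein-coding genes in dopamine and 26 in serotonin libraries. Serotonin 3 lay above dopamine 1, so the groups overlapped, and tbb-2 did not pass (log2 difference 0.80, SE 0.28, limma adjusted p = 0.102). With the replicate number as a block it passed (limma adjusted p = 9.57e-04), and it passed without serotonin 3 (log2 difference 1.12, limma adjusted p = 0.0132) and without both dopamine 1 and serotonin 3 (log2 difference 1.23, limma adjusted p = 0.0341, with 9.57e-04 to 0.604 across all alternatives).

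The alpha isotype gene tba-1 (WBGene00006528, chromosome I, 9785781 to 9787624, minus strand, 4 exon blocks), the most abundant alpha isotype, stood at 494, 639 and 755 FPKM in the dopamine libraries and at 247, 397 and 476 FPKM in the serotonin libraries. Dopamine 1 was just above serotonin 3, and the gene did not pass (log2 difference 0.78, SE 0.27, limma adjusted p = 0.105). Under the replicate block tba-1 passed (limma adjusted p = 0.00116, with 0.00116 to 0.636 across all alternatives). Its relative tba-2 (WBGene00006529, chromosome I, 12964674 to 12966795, minus strand, 4 exon blocks), also used in embryonic divisions, stood at 112, 119.5 and 154 FPKM against 75.6, 72.2 and 111 FPKM. It did not pass (log2 difference 0.59, SE 0.25, limma adjusted p = 0.189), while under the block it passed (limma adjusted p = 0.0191, with 0.0191 to 0.491 across all alternatives).

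The second broad beta isotype gene, tbb-1 (WBGene00006536, chromosome III, 10740868 to 10742432, minus strand, 3 exons), stood at 83.3, 70.7 and 94.0 FPKM in the dopamine libraries and at 59.2, 47.5 and 67.9 FPKM in the serotonin libraries. Dopamine libraries were above serotonin libraries in each case, but the gene did not pass (log2 difference 0.51, SE 0.25, limma adjusted p = 0.251) and did not with the block (0.0577). Scaled to pan-neuronal genes, the log2 differences of tba-1, tba-2, tbb-1 and tbb-2 turned to -0.18, -0.37, -0.45 and -0.16, and none passed, so no direction between the cell types can be given for these 4 genes. Tubulin coding sequences are much alike, and reads that match several isotypes may have been lost or counted for a relative. This may bear on any of the 10 genes, tba-1 against tba-2 and tbb-1 against tbb-2 included, and which are most affected was not tested. A small part of the tbb-2 reads (33724 to 93423 per library) would weigh more on a low gene such as mec-7 (159 to 1252 reads). Germline markers and dividing-cell markers, from cells that also use these isotypes, had 0 of 8 and 0 of 7 tested genes called. Their summed levels were 6471 to 7828 and 1859 to 4325 normalized counts in the dopamine libraries. In the serotonin libraries they were 3832 to 6982 and 1916 to 2934. The largest contributor to the germline sum in every library was nos-3, at 3406 to 5478 in dopamine and 1909 to 4296 in serotonin libraries. It was followed by gld-1, while pgl-1 stood at only 19.8 to 38.61 and 11.05 to 71.99. For dividing cells the largest was pcn-1, at 1073 to 2085 and 1088 to 1123. The part of these cells in the tubulin levels was not tested.

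**Figure D2:**
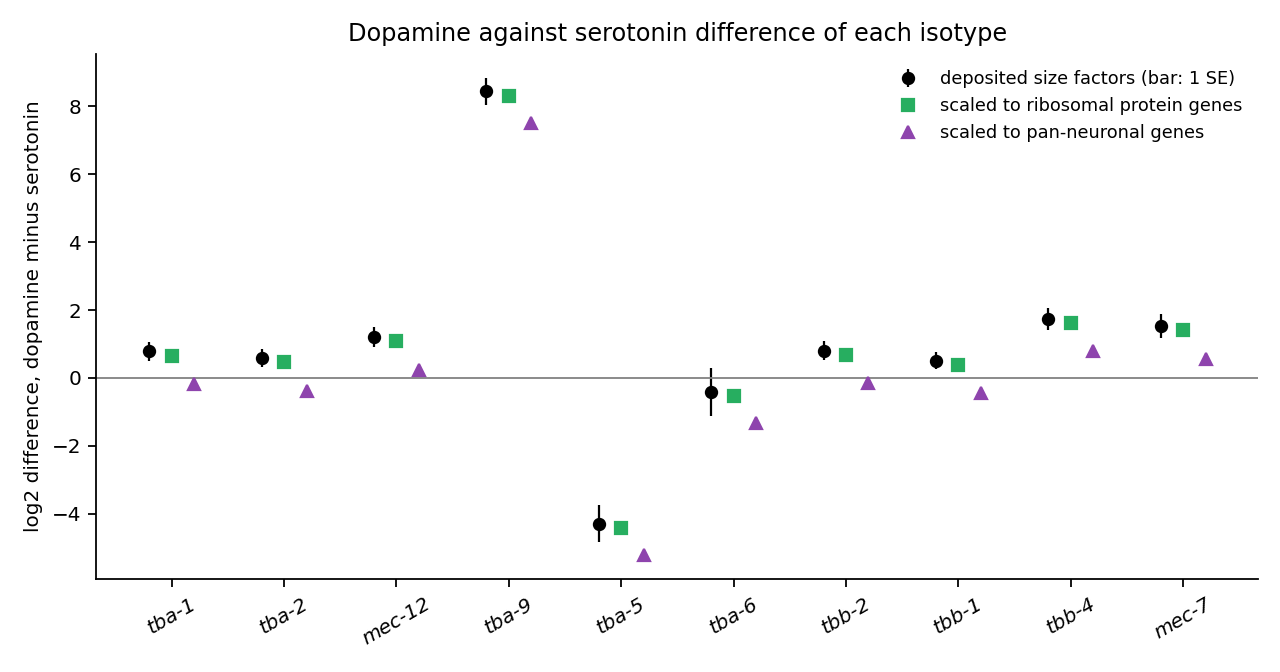
Log2 difference, dopamine minus serotonin, of each isotype with the deposited size factors (black, bar of 1 SE) and after scaling to ribosomal protein genes (green) or pan-neuronal genes (purple). Pan-neuronal scaling lowers every value, takes tba-1, tba-2, tbb-1 and tbb-2 below 0, and leaves tba-9 at 7.52 and tba-5 at -5.22.

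The order of FPKM levels was taken among the 10 genes. In both groups tbb-2 came first and tba-1 second, each above the next gene in all libraries, and tba-2 came next. In dopamine libraries tba-9 followed with a mean of 119.6 FPKM, and its range overlapped that of tba-2 (mean 128 FPKM) above it and of tbb-4 (89.9 FPKM) below it, which in turn overlapped tbb-1 (82.7 FPKM). The genes mec-12 (37.6 FPKM) and mec-7 (14.3 FPKM) followed as separate steps, and tba-6 and tba-5 came last with overlapping ranges. In serotonin libraries tbb-1 followed (58.2 FPKM), tbb-4, tba-5 and mec-12 followed with overlapping ranges between neighbours (means of 28.3, 20.9 and 16.2 FPKM), and mec-7, tba-6 and tba-9 came last in separate steps. The gene lengths behind FPKM were estimated from the ratio of normalized counts to FPKM, on a scale set by 766 genes. These estimates differ from the annotated exons for some isotypes, 2093 against 1676 bases for tba-2, 1369 against 1627 for tba-9 and 1342 against 1817 for tba-5. Per annotated exon base, tba-2 lay above tba-9 in every dopamine library, and tba-5 came just below mec-12 in serotonin libraries with overlapping ranges. The beta tubulin gene tbb-6, outside the 10, had a higher mean FPKM than tba-2 in both groups (144 against 128 in dopamine and 198 against 86.2 in serotonin libraries).

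The share of each isotype within its family was computed per library, which removes any scaling between libraries. The pair tba-1 and tba-2 made up 80.1%, 84.9% and 82.4% of FPKM over the 6 alpha genes in dopamine libraries 1, 2 and 3. In serotonin libraries 1, 2 and 3 the same pair made up 90.6%, 93.2% and 92.2%. The mean share was 82.5% ± 2.4 (SD, n = 3) in dopamine and 92.0% ± 1.3 (SD, n = 3) in serotonin libraries, with no overlap.

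Most of the remaining alpha share lay in tba-9 in one cell type and in tba-5 and mec-12 in the other. The tba-9 share was 15.9%, 9.92% and 13.6% in the dopamine libraries and 0.0730%, 0.0457% and 0.0754% in the serotonin libraries. The tba-5 share was 0.160%, 0.212% and 0.0381% in the dopamine libraries and 5.25%, 2.90% and 4.63% in the serotonin libraries. The mec-12 share was 3.72%, 4.70% and 3.88% in the dopamine and 3.67%, 3.33% and 2.94% in the serotonin libraries, and the groups barely separated. The share of tba-1 alone (68.4% ± 3.1 against 74.3% ± 4.8), of tba-2 (14.05% ± 0.73 against 17.7% ± 3.4) and of tba-6 (0.159% ± 0.12 against 0.366% ± 0.21, SD, n = 3 throughout) overlapped between groups. Within each replicate number, however, each of these 3 shares was lower in the dopamine than in the serotonin library, in 3 of 3 pairs.

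Among the 4 beta genes, tbb-2 held 86.3%, 87.2% and 87.4% in the dopamine and 86.8%, 88.9% and 90.5% in the serotonin libraries, and the groups overlapped. The tbb-4 share was 6.04%, 6.29% and 6.33% in dopamine libraries 1, 2 and 3 and 2.96%, 3.47% and 3.49% in serotonin libraries 1, 2 and 3. It was the steadiest of the separated shares, at 6.22% ± 0.15 against 3.31% ± 0.30 (SD, n = 3 each). The mec-7 share was 0.815%, 1.42% and 0.781% against 0.638%, 0.714% and 0.458%, and that of tbb-1 overlapped (5.79% ± 0.88 against 7.35% ± 2.1). In an exact two-sided permutation test of each of the 10 shares, those of tba-5, tba-9, mec-12, tbb-4 and mec-7 gave p = 0.1, the smallest that 3 libraries against 3 allow, and the other 5 gave 0.2 or 0.3, so no share could pass 0.05. Paired by replicate number, all 10 shares differed in 1 direction in 3 of 3 pairs, with tbb-1 and tbb-2 lower in dopamine libraries, and each gave p = 0.25 in an exact paired permutation test, the smallest that 3 pairs allow. Shares of a family are parts of 1 total, so these are not 10 separate results. With tbb-6 in the beta total, the tbb-2 share was higher in dopamine libraries, at 75.9%, 82.0% and 79.3% against 66.5%, 74.5% and 74.0%. The tbb-1 share was then also higher in dopamine 3 than in serotonin 3 (4.95% against 4.53%).

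**Figure D3:**
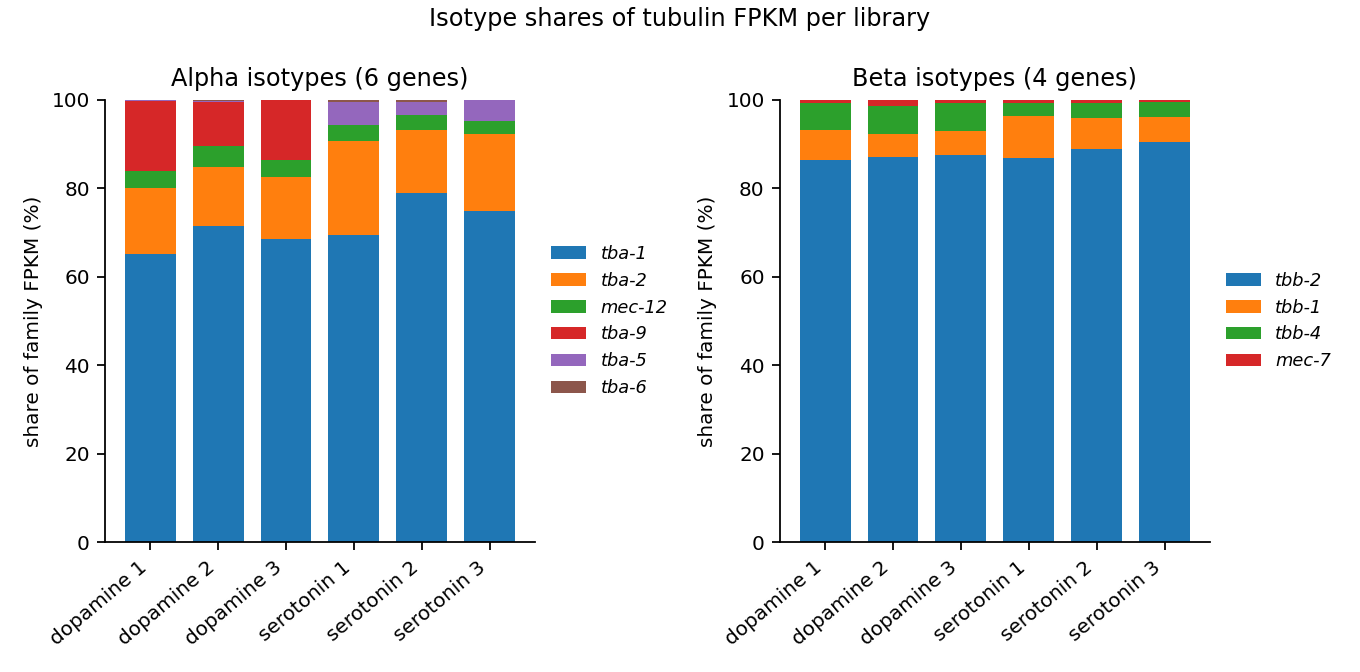
Share of each isotype, in percent of summed FPKM of the 6 alpha genes (left) and the 4 beta genes (right), as stacked bars for each of the 6 libraries. The red tba-9 block fills 9.92% to 15.9% of the alpha bars of dopamine libraries and is not visible in serotonin libraries, where the purple tba-5 block fills 2.90% to 5.25%.

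Summed FPKM of the listed genes was also compared. The alpha sum was 757, 893 and 1103 FPKM in dopamine and 356, 503 and 636 FPKM in serotonin libraries, and the beta sum was 1226, 1377 and 1724 against 616, 687 and 1224 FPKM. With tbb-6 counted, the beta sum was 1394, 1464 and 1901 against 804, 820 and 1497 FPKM, and serotonin 3 lay above dopamine 1 and 2. These sums are mostly tba-1, tba-2, tbb-1 and tbb-2, whose direction turned under pan-neuronal scaling. The ratio of the alpha to the beta sum was 0.635 ± 0.016 in dopamine and 0.610 ± 0.11 in serotonin libraries (SD, n = 3 each). The dopamine values, 0.617 to 0.648, lay within the serotonin range of 0.520 to 0.732. The 10 genes together held 0.726% to 0.839% of protein-coding FPKM in the dopamine and 0.382% to 0.606% in the serotonin libraries.

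Of 5 further tubulin genes, 4 were tested and 1, the alpha tubulin gene tba-4, was higher in dopamine libraries. It stood at 23.7, 22.9 and 26.4 FPKM in the dopamine and 6.53, 4.47 and 2.78 FPKM in the serotonin libraries, a 5.57-fold difference (log2 difference 2.48, SE 0.36, limma adjusted p = 9.86e-04). The beta tubulin gene tbb-6, named after its values were seen, had a higher FPKM than tbb-1 in every library, at 168, 86.4 and 177 FPKM in the dopamine and 188, 133 and 274 FPKM in the serotonin libraries, and did not pass (log2 difference -0.47, SE 0.33, limma adjusted p = 0.451). Counted in the beta total, tbb-6 took 9.08% ± 3.1 in dopamine and 19.3% ± 3.7 in serotonin libraries (SD, n = 3 each). The share of tbb-1 and tbb-2 together was 92.8% ± 0.44 in dopamine and 96.1% ± 0.29 in serotonin libraries without tbb-6, and 84.3% ± 2.5 and 77.6% ± 3.3 with it, so its direction depends on whether tbb-6 is counted. The median of the 4 tested genes was -0.41, against -0.07 for all genes.

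Enzymes that modify tubulin after it is built into microtubules included 1 call among 9 tested genes. The glutamylase gene ttll-11, whose enzyme family adds glutamate chains to tubulin tails, was 10.3-fold higher in serotonin libraries, at 412, 452 and 583 normalized counts against 63.6, 28.9 and 50.1 in the dopamine libraries (log2 difference -3.37, SE 0.42, limma adjusted p = 3.26e-04). The median of the list was -0.05. The acetyltransferase genes for the lysine acetylated in mec-12, mec-17 and atat-2, both named after their values were seen, did not pass (log2 difference 1.11 and 0.88, SE 0.35 and 0.32, limma adjusted p = 0.0748 and 0.12). With the replicate block both did (limma adjusted p = 0.0249 and 0.00633). The block also called ttll-12, of the tubulin ligase-like family and likewise named after its values were seen, as higher in serotonin libraries (log2 difference -0.60, limma adjusted p = 0.0289 against 0.157 without it, and 0.0541 by edgeR with the block).

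Of 21 tubulin folding factors, which include the CCT chaperonin and prefoldin subunits, only the folding cofactor gene tbcb-1 was called, 2.37-fold higher in dopamine libraries (1569 ± 168 against 681 ± 197 normalized counts; log2 difference 1.24, SE 0.29, limma adjusted p = 0.0183). The list ranged from -0.16 to 1.24 with a median of 0.23. The gene no longer passed on leaving out dopamine 3 or serotonin 2 (limma adjusted p = 0.0811 and 0.0756, with 0.0011 to 0.407 across all alternatives) or when scaled to ribosomal protein genes (0.078).

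Among 24 genes for microtubule-associated proteins, 2 were higher in dopamine libraries and 0 in serotonin libraries, with a list median of 0.17. They were ptl-1, the worm's tau-like protein gene, 2.26-fold higher (2908 ± 601 against 1316 ± 453 normalized counts; log2 difference 1.17, SE 0.29, limma adjusted p = 0.0269), and elp-1, an EMAP-like protein gene, 2.29-fold higher (749.9 ± 106 against 325 ± 16.2; log2 difference 1.2, SE 0.27, limma adjusted p = 0.0173). With the replicate block 5 were called in this direction, and 2 folding factors, as were 1068 of all 15750 genes tested. Scaled to pan-neuronal genes, 3337 of all 15750 genes tested were called higher in serotonin libraries. Among them were 7 of 24 microtubule-associated protein genes, 4 of 9 modifying enzyme genes, 2 of 4 further tubulin genes and 1 of 21 folding factor genes. Of these, ttll-11 was also called without this scaling. Of the dopamine calls in these lists only tba-4 was still made. Leaving out dopamine 1, dopamine 3, serotonin 1 and serotonin 2 in turn put ptl-1 above the threshold of 0.05 (limma adjusted p = 0.0844, 0.103, 0.0772 and 0.104, with 0.00107 to 0.51 across all alternatives), and leaving out dopamine 1 or serotonin 1 did so for elp-1 (0.0566 and 0.0563, with 6.42e-04 to 0.601). The elp-1 call was also lost without both dopamine 1 and serotonin 3 (limma adjusted p = 0.0978), and scaling to ribosomal protein genes ended both calls (0.119 for ptl-1 and 0.0715 for elp-1). The list count fell to 0 without dopamine 1 or serotonin 1 and to 1 without dopamine 3 or serotonin 2. Of the markers of intestine, hypodermis and glia, 3, 2 and 3 genes were tested and 0 were called. Scaled to pan-neuronal genes the 3 log2 differences of tbcb-1, ptl-1 and elp-1 were 0.28, 0.21 and 0.24.

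**Figure D4:**
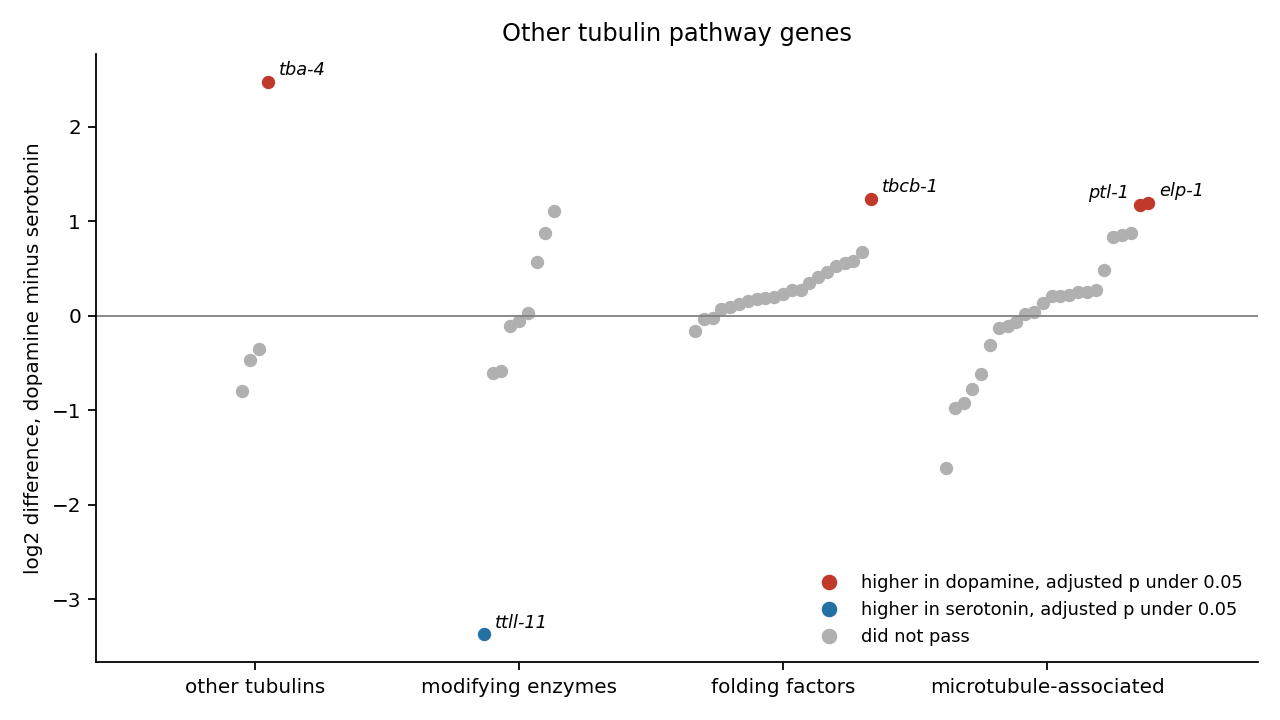
Log2 difference, dopamine minus serotonin, of each tested gene in 4 lists of tubulin pathway genes, with genes past an adjusted p of 0.05 in red (higher in dopamine) or blue (higher in serotonin) and the others in grey. The 4 red genes are tba-4 at 2.48, tbcb-1 at 1.24, elp-1 at 1.2 and ptl-1 at 1.17, and the blue gene is ttll-11 at -3.37.

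The 5 tubulin calls were also made without dopamine 1 and serotonin 3, with log2 differences of 8.71 for tba-9, -4.15 for tba-5, 2.22 for tbb-4, 1.88 for mec-7 and 1.52 for mec-12 (limma adjusted p = 2.83e-04, 0.0211, 0.0109, 0.0387 and 0.0351). With the replicate block 7 of the 10 genes were higher in dopamine libraries, the 4 above and tba-1, tba-2 and tbb-2, and 1068 of all genes tested were, against 498 without the block. Scaled to pan-neuronal genes, which moved the median of all genes from -0.07 to -1.0, of the 10 genes only tba-9 passed as higher in dopamine and tba-5 in serotonin libraries (limma adjusted p = 4.88e-06 and 5.73e-04), and the calls over all genes became 155 and 3337 in place of 498 and 1002.

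The genes whose levels over the 6 libraries were most like those of tba-9, by Pearson correlation of log2(normalized count + 1) across protein-coding genes, were arrd-23 (r = 0.999), AH9.6 (0.998) and flp-33 (0.998). Those most like tba-5 were nhr-167 (0.998), srg-45 (0.997) and unc-22 (0.997), the last of which encodes the muscle protein twitchin. The 6 libraries fall in 2 groups and are the same for every gene, so these values are given as a description.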

How the data were processed

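Per the submitters' processing notes the tools were STAR, HTSeq and DESeq2, without roles or versions, and the sources used here state neither the genome build nor the strandedness. Nanogram amounts of PicoPure-isolated RNA went into Ovation libraries per the labels' protocols, an amplifying method that can raise the spread between libraries. The deposited signal is a normalized count, each library's counts having been divided by its own size factor by the authors. All values were whole multiples of 1 step per library within 0.02, which gave back whole reads (100% of values). The deposited FPKM values carry the same scaling, since their ratio to the normalized count was constant within each of 654 genes checked. Genes were matched by identifier to Ensembl release 115 (WBcel235), 46407 of 47063.

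Genes with at least 10 normalized counts in at least 3 libraries were tested by limma 3.58.1 (trend, robust; R 4.3.3) on log2(normalized count + 1), which was tested on simulated data. Alternatives were pseudocounts, filters, scalings, FPKM, edgeR 4.0.16, DESeq2 1.42.0, a replicate block, array weights, a ribosomal RNA covariate and left-out libraries. edgeR with the block, the paired test of shares, and shares and levels per annotated exon base were added after seeing the data. Deviations of libraries from their group mean correlated at 0.433, 0.173 and 0.28 for the same replicate number. For different numbers they correlated at -0.296 to 0.013, but taking deviations from group means pushes these values down where those for the same number are positive. The labels do not say that equal numbers mark a shared batch, and the libraries rich in ribosomal RNA, dopamine 1 and serotonin 3, have different numbers. Pairing by number is thus an assumption drawn from these same data, on which the block and the paired comparisons rest. edgeR on the recovered reads called 416 genes higher in dopamine and 748 in serotonin libraries. Named genes beyond the 10 were, for each list, up to 4 genes past the threshold with the largest differences, and for the 2 tubulin genes with the largest differences the 3 most correlated genes. The members and lists were chosen with earlier results of these data known. Sequences were not analysed here.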

Additional observations from a re-analysis of the deposited data

How the results depend on the processing

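The calls of tba-9 and tba-5 were made under all 23 alternative settings. The count of tubulin genes higher in dopamine libraries, 4, became 1 when scaled to pan-neuronal genes, 7 with the replicate block and 7 by edgeR with the replicate block. It ranged from 2 to 5 when a library was left out, with 2 without dopamine 2, dopamine 3 or serotonin 1, and the count higher in serotonin libraries was 1 throughout. Pan-neuronal scaling, by its construction, turned tba-1 (-0.18), tba-2 (-0.37), tbb-1 (-0.45) and tbb-2 (-0.16), and tba-6 ranged from -0.957 to 0.19 with a library left out, turning only without dopamine 3, where the cause was not tested. After quantile normalization tba-1 and tbb-2 passed (limma adjusted p = 0.049 and 0.0371). The dopamine minus serotonin difference in the share of tba-1 and tba-2 was -9.53 percentage points (-10.8 to -8.33 with a library left out), and that of tbb-1 and tbb-2 was -3.31 (-3.5 to -3.07). With tbb-6 in the denominator the latter became 6.79 and that of tbb-2 alone 7.44. Per annotated exon base, the difference was 10.9 for tba-9 (main 13.1) and -2.94 for tba-5 (main -4.12). Calls over all genes in dopamine and serotonin directions, 498 and 1002, were 155 and 3337 under pan-neuronal scaling, 315 and 991 under ribosomal protein scaling, 1068 and 1842 with the replicate block, 781 and 1187 by edgeR with it, 294 and 753 without dopamine 1 and serotonin 3, and 224 to 455 and 581 to 1289 with a library left out. The block changed no other tubulin call. The shares per unique window of sequence were not run because no genome was used here. The 12 to 20 reads of tba-9 in serotonin libraries limit the precision of its fold change.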

Other observations

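The ratio of mec-12 to mec-7 FPKM, which needs no scaling between libraries, was 3.32, 3.41 and 3.35 in serotonin libraries 1, 2 and 3 and 2.82, 2.14 and 3.18 in dopamine libraries 1, 2 and 3. The ratio was nearly constant among the serotonin libraries and lowest in dopamine 2. The ratio of tba-1 to tba-2 FPKM was 4.40, 5.34 and 4.91 in the dopamine and 3.27, 5.49 and 4.29 in the serotonin libraries, and that of tbb-2 to tbb-1 was 12.7, 16.99 and 16.0 against 9.04, 12.9 and 16.3, with overlapping groups in both.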
